A study of Mus musculus with 12 samples.

Results

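The genes described here build and remodel the extracellular matrix: the collagens, the laminins and other basement membrane proteins, and the enzymes that cross-link or cut them. They were chosen by symbol, as collagen chains, laminin chains, matrix metalloproteinases (Mmp), their tissue inhibitors (Timp), Adamts proteases, lysyl oxidases (Lox and the Loxl genes), and Nid1, Nid2, Sparc, Fn1, Fbn1, Hspg2 and Postn. Of 110 rows with such a symbol, in a table of 39248 rows, 63 had a mean of at least 1 FPKM (fragments per kilobase, scaled to a library's mapped fragments) over the 12 libraries. These 63 genes were tested as part of the 14706 rows of the whole table that reached the same mean. The other 47 rows lay below it, 5 of them listed at 0 in every library (Adamts19, Lama1, Mmp20, Mmp7 and Col19a1). Near the limit were Adamts6 with a mean of 1.24 FPKM and Col9a3 with 1.51 inside, and Mmp16 with 0.65 outside. Fbn1 had a second row, which lay below the limit.

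RNA had been sequenced from 3T3-L1 cells, mouse preadipocytes of 1 established line, after their differentiation into adipocytes in culture. The control arm was 6 libraries electroporated with a control siRNA, and the knockdown arm 6 libraries electroporated with an siRNA against Zfp407, 3 with each of 2 siRNAs, all at 0.75 nmol and 2 days after differentiation. The series title puts the zinc finger protein ZFP407 in relation to glucose uptake and GLUT4. Each library came from a separate electroporation of the 1 line, so the tests measure the spread between electroporations. The spread of the knockdown arm also holds whatever differs between its siRNAs, since the columns do not mark which was used.

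Fat cells are surrounded by a basement membrane, a sheet of collagen IV and laminin networks joined by nidogens and perlecan, which lies within a stroma of fibrillar collagens I, III and V and of collagen VI microfibrils. Each collagen is a trimer of alpha chains, often the products of different genes, and lysyl oxidases cross-link the fibrils outside the cell. Preadipocytes exchange a fibrillar matrix for one rich in basement membrane as they become adipocytes, and metalloproteinases and their inhibitors set how fast that matrix turns over.

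Zfp407 itself had a mean of 2.83 FPKM in the control arm and 1.79 in the knockdown arm, and every knockdown library (1.60 to 2.13) lay below every control library (2.70 to 3.16). Among marker genes of other cells, the preadipocyte and fibroblast list summed to between 2565 and 3196 FPKM in control and between 2796 and 3314 in knockdown libraries, and 0 of its 8 tested genes were called by limma. Of 10 adipocyte markers, 4 were lower and 1 (Cebpa) was higher, where 36.4% of all rows were called in either direction, and the list summed to between 18920 and 23030 FPKM in control and between 17480 and 22310 in knockdown libraries. The macrophage list summed to at most 3.90 FPKM in any library, with Emr1 at 0 in all 12, and the endothelial list to at most 2.32. Its 1 tested gene, Vwf, was called higher, at 1.37 FPKM in control and 1.77 in knockdown libraries (adjusted p = 0.0313 by limma). The part of these markers in the changes of the matrix genes was not tested. In knockdown library 6, 32.8% of summed FPKM came from the mitochondrial chromosome, against at most 26.3% in any other library.

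Matrix genes were lower after Zfp407 knockdown or were not called, and none was higher. By limma on log2(FPKM + 1), with an adjusted p under 0.05 over all rows, 26 of the 63 fell, 0 rose and 37 did not pass the test. Over all rows tested, 36.4% were called in either direction and 24.8% were called lower. When the 9545 rows with a protein-coding symbol were tested alone, 2859 were called lower, with a median log2 fold change of -0.07. That fit called 27 of the 63 lower. The median log2 fold change of the 63 was -0.18, beside -0.05 over all rows, and 53 of the 63 values were negative. Without knockdown library 6 the counts were 25 lower and 1 higher, against 23.0% of all rows called lower. Median centring of the libraries left 22 of the 63 lower (21.4% of all rows), quantile normalization 18 (22.1%), and a limit at 5 FPKM kept 49 of the genes, 25 of them lower (27.9%). The one gene higher without library 6 was Mmp11, with an adjusted p of 0.0467. It was also the one higher without knockdown library 5 (adjusted p = 0.0494), where 24 were lower, against 24.4% of all rows. Against a minimum fold of 1.2 (limma's treat test), 4 fell, Col5a3, Col4a2, Adamts12 and Adamts9, where 3.69% of all rows were called lower. For 11 of the 63 every knockdown library lay below every control library, as in 13.9% of all rows. RNA from whole cultures cannot tell fewer matrix-producing cells from less RNA per cell.

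**Figure D1:**
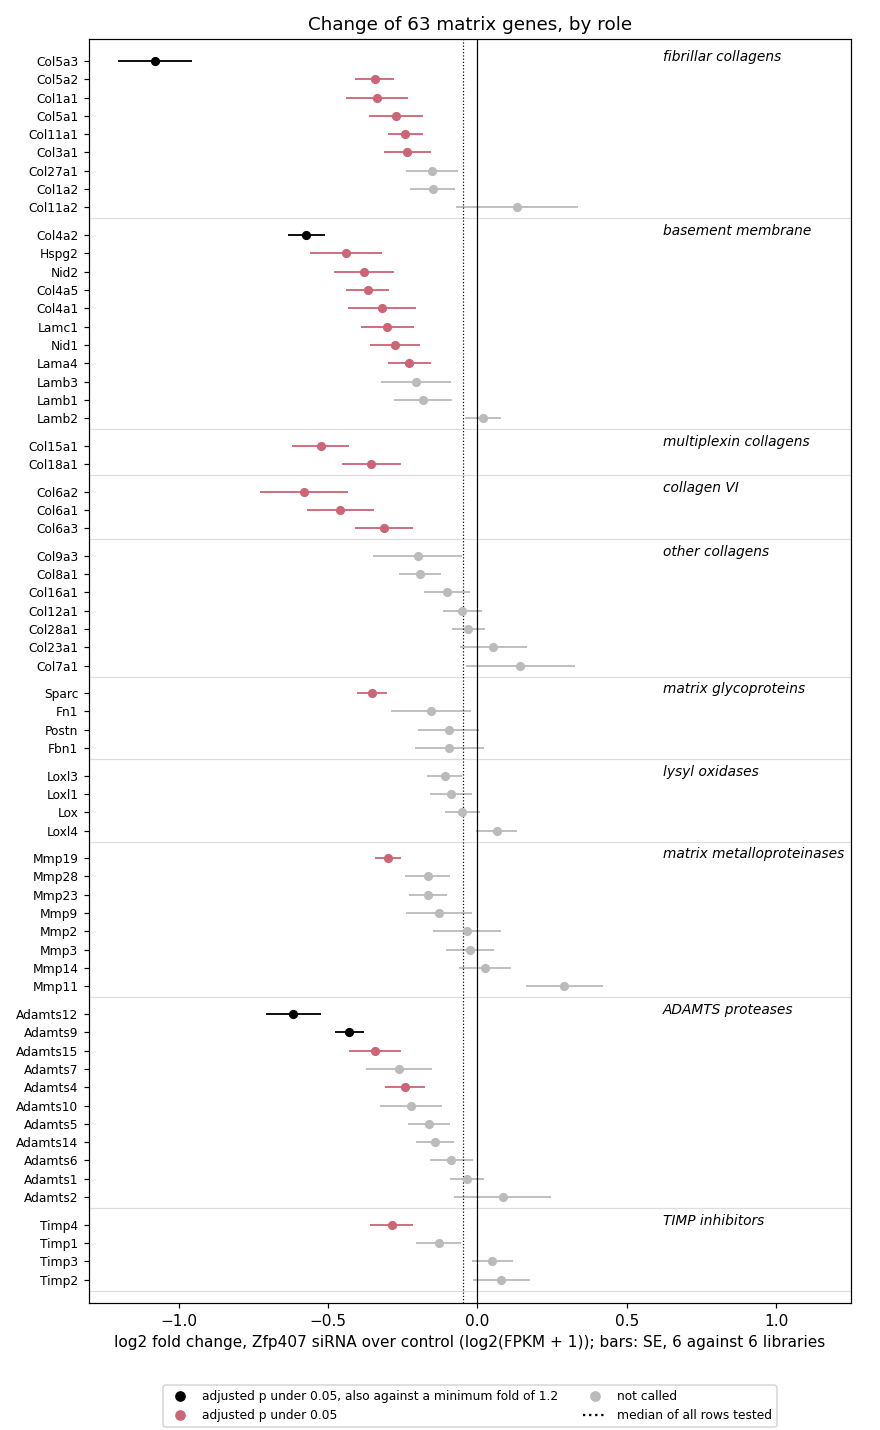
Each point is the log2 fold change of 1 of the 63 genes on the log2(FPKM + 1) scale, knockdown over control, with its standard error (6 against 6 libraries), grouped by role. Black points passed the test against a minimum fold of 1.2, red points passed limma's test and grey points did not, and the dotted line is the median of all 14706 rows, -0.05. All 3 collagen VI points and both multiplexin points lie left of every lysyl oxidase point.

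A limit on the size of change may apply to these genes. In low rows of the table, what 1 read is worth in FPKM differed between the arms in 163 of 492 rows (33.1%), and the 90th percentile of that difference was 0.231 on the log2 scale, while within an arm it differed in 0 of 88 and 1 of 98 rows. In such rows a scale factor was common to a whole arm. All of the rows measured lay below the limit of 1 FPKM, so none of the genes described here was among them. Whether the factor reaches these genes was not tested, and single-gene changes smaller than about 0.231 cannot be told apart from it. The count and the percentile leave out any row with a very large difference, and some of the rows kept lay above 0.231. A change beyond that size can therefore still hold such a factor. Of the 26 genes called, Lama4 and Col3a1 (-0.23 each) and Col11a1 (-0.24) lie about at this size. The low gene Adamts4 was at -0.24 on the log2(FPKM + 1) scale and at -0.336 with a pseudocount of 0.1 FPKM.

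The fibrillar collagens were led by the type III, I and V chains. Of the 9 tested, 6 fell (Col5a3, Col5a2, Col1a1, Col5a1, Col11a1 and Col3a1), where 24.8% of all rows were called lower. The median log2 fold change of the 9 was -0.24. Col5a3 encodes the alpha 3 chain of collagen V, a collagen that takes part in the assembly and thickness of collagen fibrils, and it had the largest fall of the 63. Col5a3 (XLOC_035280, chromosome 9, 20769966 to 20815133 on GRCm38, minus strand) measured 46.6, 48.2, 44.9, 48.4, 42.2 and 39.4 FPKM across control libraries 1 to 6, whereas knockdown libraries 1 to 6 gave 24.7, 26.9, 23.3, 19.6, 16.7 and 15.3. The highest knockdown library was well below the lowest control library, and the level fell by 53% on average, from 44.9 ± 3.60 to 21.1 ± 4.61 FPKM (SD, n = 6 each). This is -1.08 on the log2 scale (SE 0.12, adjusted p = 4.2e-05 by limma, p = 0.00216 in the exact permutation test, the smallest two-sided p that 6 against 6 allows). The authors' deposited table gives Col5a3 a log2 fold change of -1.13 and marks it significant. The same source marks 2 of the 63 genes, Col5a3 and Adamts12, and 1.59% of the 18978 rows it tested.

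Upstream sequence is shown for the genes past the minimum fold of 1.2 with an upstream region of their own. These are the 250 bases before the RefSeq start on GRCm38.p6, on the gene's strand, with capitals marking the letters CCAAT or GGGCGG on either strand, which were searched with TATAAA. They are chr9:20815068-20815317 (minus strand) for Col5a3, chr15:11064523-11064772 (plus strand) for Adamts12 and chr6:92943535-92943784 (minus strand) for Adamts9.
Col5a3: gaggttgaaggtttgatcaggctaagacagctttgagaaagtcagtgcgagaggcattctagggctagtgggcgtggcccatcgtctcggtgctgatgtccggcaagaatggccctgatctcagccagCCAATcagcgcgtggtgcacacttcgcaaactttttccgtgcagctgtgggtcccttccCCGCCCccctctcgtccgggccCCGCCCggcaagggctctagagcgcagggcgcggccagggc
Adamts12: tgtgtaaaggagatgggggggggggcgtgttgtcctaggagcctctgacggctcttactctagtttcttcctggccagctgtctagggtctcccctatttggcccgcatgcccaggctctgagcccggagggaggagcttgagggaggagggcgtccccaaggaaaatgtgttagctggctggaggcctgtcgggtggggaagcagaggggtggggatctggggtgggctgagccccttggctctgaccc
Adamts9: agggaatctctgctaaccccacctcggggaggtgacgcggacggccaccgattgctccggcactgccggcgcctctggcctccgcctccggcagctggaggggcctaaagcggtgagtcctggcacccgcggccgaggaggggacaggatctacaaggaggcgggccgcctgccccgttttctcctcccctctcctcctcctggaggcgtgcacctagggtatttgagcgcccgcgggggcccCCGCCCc
The Col5a3 window holds CCAAT at 1 place and GGGCGG at 2, the Adamts9 window holds GGGCGG at 1, and the Adamts12 window holds none of the 3 motifs. The loci of Col5a3 and Adamts12 in the deposited table reach into the ends of their windows, and both GGGCGG places of Col5a3 lie in that part. Among all 32851 windows of this length in the table, 33.8% hold CCAAT, 32.7% hold GGGCGG and 12.4% hold TATAAA, so these matches are a description only. The table had an entry for 43 of the 63 genes.

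Col3a1, the single chain of collagen III and the highest of the 63 genes, was at 1303, 1299, 1293, 1434, 1339 and 1272 FPKM across the controls, and at 1229, 1294, 1139, 1120, 1105 and 898.5 after knockdown. Knockdown library 2 reached into the control range and the other 5 lay below it. It fell by 0.23 on the log2 scale (SE 0.08, adjusted p = 0.0326 by limma, p = 0.00649 in the exact permutation test, n = 6 each). Col1a2, the alpha 2 chain of collagen I, had control values of 790.1, 822, 776, 851, 765 and 723 FPKM and knockdown values of 755, 811, 684, 749, 703 and 576. The arms overlapped, with 3 knockdown libraries inside the control range, and the difference of -0.15 (SE 0.08) did not pass the test (adjusted p = 0.146 by limma). Col1a1, the alpha 1 chain of the same collagen, was at 269, 282, 251, 310.1, 265 and 221 FPKM in control and at 228, 254, 201, 220.4, 207 and 161 in knockdown libraries. Here 4 knockdown libraries lay below every control library, and Col1a1 fell by 0.34 on the log2 scale (SE 0.10, adjusted p = 0.0246 by limma, p = 0.013 in the exact permutation test, n = 6 each).

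The remaining fibrillar chains were expressed below those of collagens I and III. Col5a2 fell from 166 to 130.3 FPKM (-0.34 on the log2 scale) with arms that did not overlap, and Col5a1 fell from 66.1 to 54.8 FPKM (-0.27). Col11a1, a minor chain that joins collagen fibrils, fell from 16.7 to 14.0 FPKM (-0.24), again without overlap. Col27a1 (-0.15) and Col11a2 (0.13) did not pass the test, and control libraries of Col11a2 alone ran from 2.70 to 8.51 FPKM. The calls of Col5a1 and Col3a1 were the least steady of the group: they were lost under median centring of the libraries, under quantile normalization, and without control library 4. With that library left out, 3 of the 9 fibrillar collagens and 20 of the 63 genes were called lower, against 22.6% of all rows.

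Of 11 basement membrane genes tested, 8 fell and 0 rose, where 24.8% of all rows were called lower, and their median log2 fold change was -0.30. Under quantile normalization 4 of the 11 and 3 of the 9 fibrillar collagens were called lower, against 22.1% of all rows. The median of the fibrillar group lay 0.06 above it on the log2 scale. Library by library the difference, fibrillar minus basement membrane, ran from -0.12 to 0.13 in the knockdown arm and from -0.03 to 0.04 in the control arm, and it was positive in 5 of the 6 knockdown libraries. That difference was -0.02 under quantile normalization, so the order of the groups was not fixed by these data. No test was made of it, since the genes were chosen with earlier results known.

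Col4a2 and Col4a1 encode the chains of the collagen IV trimer found in most basement membranes. They lie head to head on chromosome 8 (11187755 to 11449287 on GRCm38 for both rows), and in RefSeq their starts, on opposite strands, are so close that the 2 transcripts overlap over 22 bases (11312805 to 11312826). The table gives them 1 shared locus of 4 rows, so reads in the overlap had to be divided. Col4a2 was at 157, 144, 146, 163, 149 and 138 FPKM in control and at 103, 109, 92.7, 108, 103 and 87.4 in knockdown libraries. All 6 knockdown libraries lay below the lowest control library, and Col4a2 fell by 32.9%, or 0.57 on the log2 scale (SE 0.06, adjusted p = 2.21e-05 by limma, p = 0.00216 in the exact permutation test, n = 6 each). The authors' deposited table has nearly the same log2 fold change for Col4a2, -0.60, with a p of 0.673 and no mark of significance.

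Col4a1 was at 242.5, 257, 232, 258, 233 and 211 FPKM across the controls, and at 217, 248, 199, 185, 172 and 141 after knockdown. Knockdown libraries 1 and 2 lay inside the control range and the others below it. Its log2 fold change of -0.32 (SE 0.11) only just passed, with a limma adjusted p of 0.0456 and an exact permutation p of 0.0238 (n = 6 each). That call was lost under 12 alternatives besides the minimum fold, among them median centring (adjusted p = 0.0807), quantile normalization (0.124) and leaving out knockdown library 6 (0.069), the lowest library at 141 FPKM.

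Nid1 encodes nidogen 1, which links laminin to collagen IV. It was at 154, 164, 151, 172, 154 and 141 FPKM in control and at 136, 152, 119.7, 141, 124 and 104 in knockdown libraries. Knockdown library 2 lay within the control range, library 4 about at its lower end and the other 4 below it. Nid1 fell by 0.28 on the log2 scale (SE 0.08, adjusted p = 0.021 by limma, p = 0.00866 in the exact permutation test, n = 6 each).

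The other basement membrane genes were lower expressed. Nid2, the second nidogen, fell from 28.4 to 21.8 FPKM (-0.38), and Col4a5, a further collagen IV chain, from 37.5 to 29.0 FPKM (-0.37) without overlap of the arms. Hspg2, which encodes the heparan sulfate proteoglycan perlecan, fell from 19.5 to 14.0 FPKM (-0.44). In the authors' deposited table the test of Hspg2 carries the status FAIL. Of the laminin chains, Lama4 (84.7 to 72.3 FPKM, -0.23) and Lamc1 (71.8 to 58.2 FPKM, -0.30) fell, and Lamb1 (-0.18), Lamb3 (-0.20) and Lamb2 (0.02) did not pass the test. Lamb2 changed sign when single libraries were left out. Lama1 was listed at 0 in all libraries, and Lama2, Lama3 and Lama5 lay below 1 FPKM, which leaves Lama4 as the highest alpha chain.

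**Figure D2:**
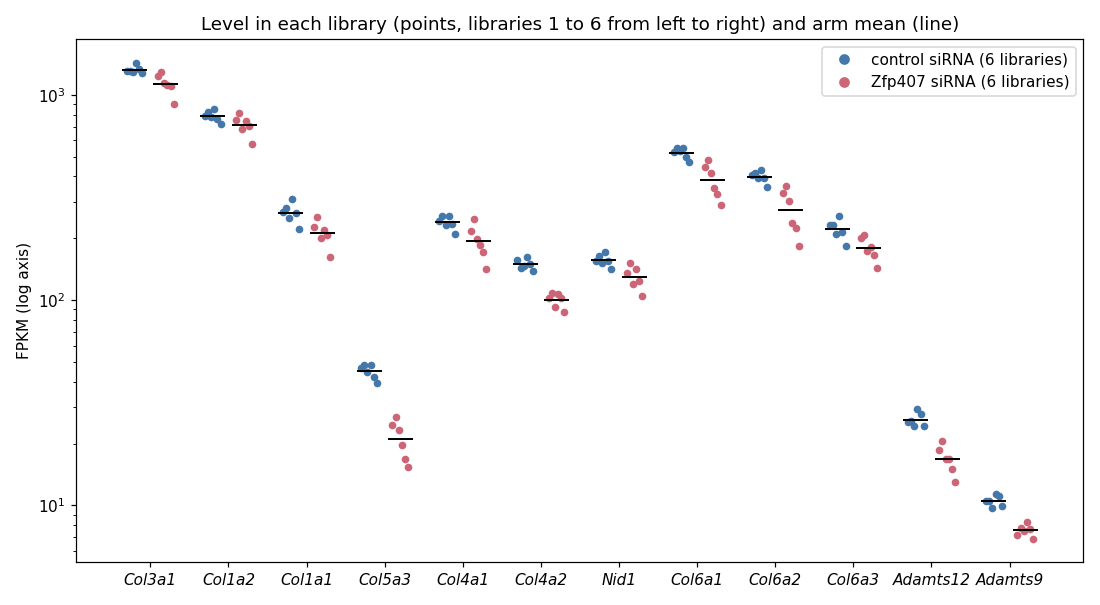
FPKM of 12 genes on a log axis in each of the 6 control (blue) and 6 knockdown (red) libraries, ordered 1 to 6 from left to right within an arm, with a line at the arm mean. The arms do not overlap for Col5a3, Col4a2, Adamts12 and Adamts9, and they do for Col1a2, where the means are 788 and 713 FPKM.

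All 3 tested chains of collagen VI, which forms beaded microfibrils around fat cells, fell, where 24.8% of all rows were called lower. Col6a1 ran from 471 to 553 FPKM in control and from 290.5 to 483 in knockdown libraries, Col6a2 from 354 to 432.5 and from 184 to 359.9, and Col6a3 from 184 to 258 and from 144 to 206. In each case the upper end of the knockdown arm came from library 2 and reached into the control range. The log2 fold changes were -0.46 (SE 0.11, adjusted p = 0.00719 by limma) for Col6a1, -0.58 (SE 0.15, adjusted p = 0.00826) for Col6a2 and -0.31 (SE 0.10, adjusted p = 0.0237) for Col6a3. None of the 3 passed the test against a minimum fold of 1.2. The SD was 74.0 FPKM in knockdown and 31.8 FPKM in control libraries for Col6a1, 68.8 and 26.8 for Col6a2, and 23.0 and 25.1 for Col6a3.

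Both multiplexins fell, collagens of basement membrane zones that carry heparan or chondroitin sulfate chains. Over all rows, 24.8% were called lower. Col15a1 averaged 119 ± 9.08 FPKM in control and 82.8 ± 11.6 after knockdown (SD, n = 6 each), and fell by 0.52 on the log2 scale (adjusted p = 0.00105 by limma), with no overlap between the arms. Col18a1, whose C-terminal fragment is endostatin, fell from 36.1 to 28.3 FPKM (-0.35, adjusted p = 0.0148 by limma). Of the 7 other collagens, led by Col16a1 at 47.0 FPKM in control and 43.8 in knockdown libraries, none passed the test, and their median log2 fold change was the same as that of all rows, -0.05. They include Col12a1 and Col16a1, which lie on the surface of fibrils, and the low Col8a1, Col23a1, Col28a1, Col7a1 and Col9a3. For Col7a1 the authors' deposited table gives 1.62 FPKM in control and 8.62 after knockdown, a log2 fold change of 2.41 without a mark of significance. From the library values the means were 1.64 and 1.87 FPKM, and the log2 fold change was 0.14.

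Across all 24 tested collagen genes, 14 fell and 0 rose, where 24.8% of all rows were called lower. Among the glycoproteins that bind them, Sparc averaged 1241 ± 61.9 FPKM in the controls and 972 ± 50.8 after knockdown (SD, n = 6 each) and fell by 0.35 on the log2 scale (adjusted p = 2.02e-04 by limma, p = 0.00216 in the exact permutation test). SPARC is a secreted collagen-binding protein of the matricellular kind, and its gene was the second highest of the 63. The 6 knockdown libraries, 894 to 1047 FPKM, lay below the lowest control library at 1155. Postn (582 and 544 FPKM), Fn1 (115.9 and 105) and Fbn1 (5.23 and 4.84), which encode periostin, fibronectin and fibrillin 1, did not pass the test. The same held for the lysyl oxidases, of which 0 of 4 were called. Lox, the highest, was at 295 ± 15.2 FPKM in control and 285 ± 22.4 in knockdown libraries, a log2 difference of -0.05.

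Of 8 matrix metalloproteinases 1 fell, where 24.8% of all rows were called lower. It was Mmp19, a secreted enzyme, which fell from 21.6 ± 0.613 to 17.4 ± 1.2 FPKM (SD, n = 6 each), or by 0.30 on the log2 scale (adjusted p = 2.78e-04 by limma), with arms that did not overlap. Mmp2, a gelatinase that cuts collagen IV, was the highest of the family at 199 FPKM in control and 197.5 in knockdown libraries, with a knockdown range of 145 to 258. Mmp14, the membrane-bound protease that activates it, was at 173 and 178 FPKM. Their log2 differences were -0.03 and 0.03. Mmp11, which encodes stromelysin 3, had the largest positive difference of the 63 genes, 0.29, from 88.2 ± 12 to 108.9 ± 21.3 FPKM (SD, n = 6 each), and did not pass the test with all 12 libraries (adjusted p = 0.0995 by limma).

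Of 11 Adamts proteases, secreted enzymes that cut proteoglycans and other matrix proteins, 4 fell and 0 rose, against 24.8% of all rows called lower and 36.4% called in either direction. Their median log2 fold change was -0.22. Adamts12 (XLOC_011139, chromosome 15, 11064735 to 11349234, plus strand) was at 25.4, 25.7, 24.2, 29.5, 27.7 and 24.3 FPKM in control and at 18.7, 20.6, 16.8, 16.9, 15 and 13 in knockdown libraries. The arms did not overlap, and Adamts12 fell by 0.62 on the log2 scale (SE 0.09, adjusted p = 3.29e-04 by limma, p = 0.00216 in the exact permutation test, n = 6 each). The authors' deposited table gives -0.63 with a q of 0.00387. Adamts9, an enzyme that cuts versican and aggrecan (XLOC_029004, chromosome 6, 92772699 to 92943533, minus strand), was at 10.4, 10.5, 9.72, 11.3, 11.1 and 9.94 FPKM in control and at 7.16, 7.72, 7.54, 8.31, 7.68 and 6.88 in knockdown libraries. Every knockdown library was again below every control library, and the fold change of -0.43 on the log2 scale had the smallest standard error of the 11 (SE 0.05, adjusted p = 3.40e-05 by limma, p = 0.00216 in the exact permutation test, n = 6 each).

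Adamts15 fell from 8.56 to 6.61 FPKM (-0.34 on the log2 scale) and Adamts4 from 2.56 to 2.02 (-0.24), both of them proteoglycan-cutting members of the same family. Adamts1, the highest of the family, was at 84.4 FPKM in control and 82.3 in knockdown libraries and was not called. Adamts2, which trims the N-terminal propeptide of fibrillar procollagens, was at 19.7 and 20.9 FPKM and was not called. Of the 4 inhibitors 1 fell, where 24.8% of all rows were called lower. It was Timp4, from 35.5 to 28.9 FPKM (-0.29, adjusted p = 0.00828 by limma). Here 5 of 6 knockdown libraries lay below the lowest control library. Timp2, the highest at 152 FPKM in control and 160.5 in knockdown libraries, Timp1 and Timp3 did not pass the test. Timp1, Timp3 and Timp4 lie inside loci that also hold the synapsin genes Syn1, Syn3 and Syn2, so that reads at these loci had to be shared out among several genes. Some genes called lower also share their locus with other rows, among them Col5a3, Adamts9, Col4a5, Col15a1, Col18a1 and Mmp19.

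Levels of partner genes were also compared as ratios in 9 pairs, and in 1 of them, Col5a3 to Col5a1, the arms did not overlap. The ratio of Col5a3 to Col5a1 averaged 0.681 ± 0.026 in control libraries and 0.382 ± 0.0357 after knockdown (SD, n = 6 each), with ranges of 0.642 to 0.71 and 0.328 to 0.419. Col5a1 to Col5a2 stayed within overlapping ranges, 0.340 to 0.424 and 0.380 to 0.478. Col1a1 to Col1a2 was 0.337 ± 0.0201 in control and 0.296 ± 0.0109 in knockdown libraries, and Col6a2 to Col6a1 was 0.764 ± 0.0177 and 0.704 ± 0.0464, with overlapping arms in both pairs. Col4a2 to Col4a1 ran from 0.560 to 0.655 in control libraries and was 0.473, 0.438, 0.466, 0.580, 0.596 and 0.619 in knockdown libraries 1 to 6. Libraries 1, 2 and 3 lay below the control range and libraries 4, 5 and 6 inside it, and no siRNA was assigned to a column. The arms also overlapped for Lama4 to Lamc1, for Lamb1 to Lamc1 (1.33 and 1.44), Nid2 to Nid1 (0.182 and 0.168) and for Col6a3 to Col6a1 (0.423 and 0.469). The pairs were chosen after their values had been seen, and no test of them is given.

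**Figure D3:**
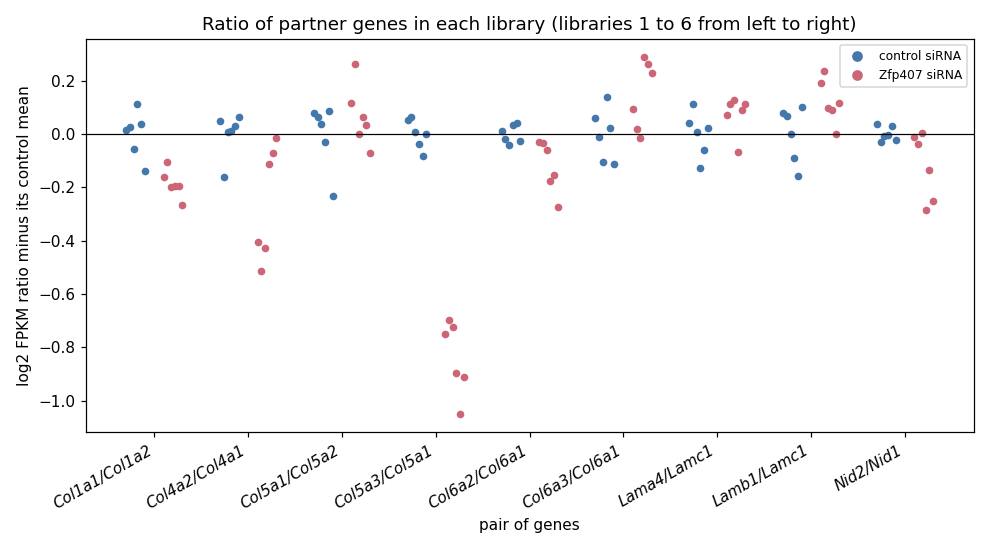
Log2 of the FPKM ratio of 9 pairs of partner genes in each library, minus the mean of the control libraries, with libraries 1 to 6 from left to right in each arm. The 6 knockdown points of Col5a3/Col5a1 lie well below all control points, and those of Col4a2/Col4a1 lie partly below and partly within them.

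The fall was not equal across knockdown libraries. The median difference from the control mean for the fibrillar collagens was -0.11, -0.06, -0.22, -0.27, -0.35 and -0.56 on the log2 scale in knockdown libraries 1 to 6. For basement membrane genes it was -0.20, -0.08, -0.35, -0.14, -0.37 and -0.57, and for collagen VI -0.23, -0.11, -0.34, -0.57, -0.67 and -0.84. Over all rows it lay between -0.08 and -0.01. Library 2 was thus nearest the control level and library 6 farthest from it in all 3 groups. Library 6, the library with the raised mitochondrial share, had the lowest knockdown value for 46 of the 63 genes (73.0%), against 26% of all rows, and the part of that share in the result was not tested. Without it, 6 of 9 fibrillar and 7 of 11 basement membrane genes were still called lower, against 23.0% of all rows. Control libraries differed too, as library 4 had the highest control value for 37 of the 63 genes and library 6 the lowest for 31.

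**Figure D4:**
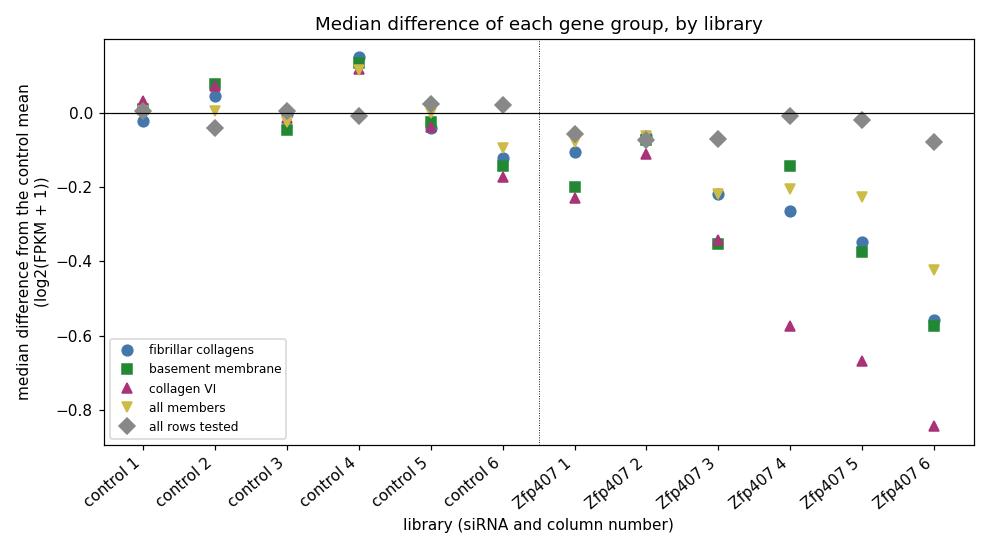
Median difference from the control mean, on the log2(FPKM + 1) scale, of the fibrillar collagens, basement membrane genes, collagen VI chains, all 63 genes and all 14706 rows in each library. All rows stay near 0, whereas the matrix groups run from near 0 in knockdown library 2 to between -0.42 and -0.84 in knockdown library 6.

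Other genes of the matrix pathway were counted in 5 further lists, against the same 24.8% of all rows called lower. When rows with a protein-coding symbol were tested alone, 2859 of 9545 were called lower. Of 18 tested genes of collagen synthesis and secretion, 5 fell and 0 rose, with a median log2 fold change of -0.12. Those with the largest change were Plod2 (-0.37, a lysyl hydroxylase), Fkbp10 (-0.31, a collagen chaperone) and Lepre1 (-0.28, a prolyl 3-hydroxylase). Of 18 matrix receptors, 4 fell and 0 rose, and the largest changes were those of the syndecans Sdc1 (-0.30) and Sdc2 (-0.29) and of Dag1 (-0.27), the dystroglycan that binds laminin. Of 16 proteoglycan and elastic fibre genes 1 fell, Lum (-0.18), and 0 rose. Of 21 TGF-beta and matricellular genes, 2 fell, Tgfb1 (-0.45) and Ltbp3 (-0.36), a binding protein of latent TGF-beta, and 1 rose, Tgfbr1 (0.14). Of 15 other matrix proteases and inhibitors, 5 fell and 0 rose. Adam12, a membrane-bound metalloproteinase, fell from 14.6 to 9.36 FPKM (-0.60) and alone among these lists passed the test against a minimum fold of 1.2, while Fap, a serine protease of fibroblasts, fell by 0.38 and Ctsk, the collagen-cutting cathepsin K, by 0.22 on the log2 scale. The changes of Lum, Tgfbr1 and Ctsk are smaller than 0.231, the 90th percentile of the difference in low rows given above. The same holds for Serpinh1 (-0.20), Ctsl (-0.14) and Ctsb (-0.12), which are also among those that fell.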

How the data were processed

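The deposited table held rows named by gene, and a gene could have more than 1 row, as Fbn1 did. Each row gave the authors' FPKM in each of the 12 libraries. Per the file headers, it also gave the authors' FPKM of each arm, log2 fold change, p-value and q-value. Cufflinks 2.0.2 and SAMtools 0.1.18.0 had been used along with Bowtie2 2.0.0.7 and TopHat2 2.0.5, per the submitters' processing notes. The sources used here give no genome build, annotation, strand or alignment settings. Of rows with a protein-coding symbol, 99.6% overlapped that gene in GENCODE M21 (GRCm38), the build named for coordinates. The table's starts count from 0 and were raised by 1. FPKM values divide reads among overlapping genes by an estimate and scale them to each library's total.

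The test was limma 3.58.1 (R 4.3.3; lmFit, then eBayes with an intensity trend) on log2(FPKM + 1), 6 control against 6 knockdown libraries, over the 14706 rows with a mean of at least 1 FPKM, two-sided, called where the Benjamini-Hochberg adjusted p was under 0.05. Fold changes are on the log2(FPKM + 1) scale, which understates the change of low genes. The knockdown columns carry numbers 1 to 6 and no siRNA, so both siRNAs formed 1 arm. Single genes also had an exact permutation test over libraries. FPKM hold no read totals. From the worth of 1 read in low rows, relative depths (control library 1 as 1) ran from 0.867 to 1.14, and summed FPKM between 2772929 and 3748488. The highest correlation between libraries of 1 arm was 0.993, and no pair was identical.

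Genes, gene lists and tests were chosen with earlier results of these data known. Library values are given for genes past a minimum fold of 1.2 and for the 3 most expressed fibrillar and basement membrane genes. In other groups the called genes (up to 5) and the most expressed one are named, and in lists outside the 63 the 3 called genes with the largest change. Mmp11, Mmp14, Adamts2 and the low other collagens were named after their values were seen. Alternatives were another pseudocount (0.1 FPKM), other filters, median centring, quantile normalization, no intensity trend, a minimum fold, protein-coding rows only, leaving out each library and, added after the data were seen, the column number as a block. Upstream sequences come from RefSeq (GRCm38.p6).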

Additional observations from a re-analysis of the deposited data

Results flagged for a closer look

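Each of the 63 genes was checked in each arm for a library far from the other 5 (Dixon's test), which made 126 groups and gave 4 such values. Chance alone gives about 1 in 20 groups. Timp2 in control library 2 was lowest at 115 FPKM, with the next library at 153. Col11a1 in knockdown library 6 was lowest at 11.9 FPKM, with the next at 13.9, and Col15a1 in the same library was lowest at 60.6 FPKM, with the next at 82.0. Col28a1 in control library 5 was highest at 4.49 FPKM, with the next at 3.84.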

How the results depend on the processing

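The knockdown columns carry numbers from 1 to 6 that no sample title gives. Deviations of columns with the same number in both arms correlated between -0.0493 and 0.145 across rows. Of 6 control columns, 3 correlated best with their own number, more than random matching would give on average. These values do not settle whether the numbers pair libraries. The main fit did not pair them, since no title gives the knockdown numbers. A fit with the column number as a replicate block, added after the data were seen, called 3824 of all rows lower (26.0%) and 1876 higher, with 29 of the 63 genes lower and 1 higher. It lost none of the 26 and added Col1a2 (adjusted p = 0.0448), Lamb1, Fn1 and, higher, Mmp11, by limma. Of the 26 called genes, 18 stayed past the threshold under every alternative in which they were tested except the minimum fold (Adamts4 lies below the limit of 5 FPKM), and 8 were lost under at least 1 other: Col4a1 (12 alternatives), Col5a1, Col3a1, Lama4, Col6a3, Col1a1, Lamc1 and Nid1. None of the 26 changed sign. Of the uncalled genes, 11 were called under at least 1 alternative: Col8a1 under 5, Mmp11 under 3, and Adamts5, Adamts7, Adamts10, Adamts14, Mmp23, Mmp28, Col1a2, Lamb1 and Fn1 under 1 each. Against a minimum fold of 1.2 the calls came to 856 over all rows, 4 among the 63 genes, 1 fibrillar and 1 basement membrane. Quantile normalization gave 3 fibrillar and 4 basement membrane calls, and 18 of the 63 (22.1% of all rows lower). Median centring gave 22 of the 63 lower (21.4% of rows) and turned 3648 lower and 1712 higher rows into 3146 and 2307. Among rows with a mean of at least 5 FPKM, 27.9% were lower. With 1 library left out, calls ran from 20 to 28 among the 63. They ran from 3 to 6 among fibrillar and from 6 to 8 among basement membrane genes. In those fits, between 3257 and 3875 of the 14706 rows were called lower. Uncalled genes whose sign changed were Adamts1 (0.0149, quantile normalization), Mmp3 (0.00888) and Col28a1 (0.00255, both centring), and, with a library left out, Lamb2 (-0.0061 to 0.057), Mmp14 (-0.0282 to 0.0918), Mmp2 (-0.116 to 0.0484), Mmp3 (-0.0807 to 0.0174), Col23a1 (-0.0201 to 0.11), Col28a1 (-0.0585 to 0.0086) and Col7a1 (-0.00115 to 0.22). The cause of these shifts was not tested. Depth is unknown in absolute terms, so genes below 1 FPKM were not compared.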
